A study of Rattus norvegicus with 12 samples.

Results

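The comparison concerns rat liver after 6 weeks of a high-fat emulsion, set against liver at 0h. It rests on 6 of the 12 arrays of the series, the 3 arrays labelled 6w and the 3 labelled 0h, and its members are all probe sets of the array other than the control probe sets. Sprague-Dawley is an outbred rat strain, and feeding rats a high-fat emulsion is a model of nonalcoholic fatty liver disease (NAFLD). The 6w group was fed the emulsion for 6 weeks, and the 0h group is labelled normal liver and is the only group without feeding. Both groups carry the same labels for strain, for tissue (liver, middle of the right lobe) and for age, which is given as 12 weeks in every group. The other 6 arrays come from rats fed for 2 or 4 weeks, and their values are given where they show what differs at 6 weeks. They also enter the shared estimate of the spread on which every p-value rests. Total RNA was labelled with biotin and hybridised to the Affymetrix Rat Genome 230 2.0 array, which measures each transcript with a set of short probes and reports a signal on a linear scale. The labels call the 3 arrays of a group technical replicates, and the sources used here give neither the number nor the sex of the rats. The p-values below therefore measure only the spread between arrays of a group, estimated over all 12 arrays. The effect of feeding cannot be told apart from that of elapsed time or of anything else peculiar to the 0h samples.

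The liver makes cholesterol from acetyl-CoA, converts part of it to bile acids and secretes the rest, and the transcription factor SREBP-2, which switches the synthetic pathway on, is held inactive when sterol is plentiful. Fatty acids reaching the liver are oxidised in mitochondria and peroxisomes under the control of the receptor PPAR alpha, or stored as triglyceride. Interferon gamma, a cytokine of T and natural killer cells, raises the genes of antigen presentation, among them the class II molecules of the major histocompatibility complex (MHC), which macrophages, dendritic cells and B cells use to show peptides to T cells.

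Of 31042 probe sets, 1574 were higher and 1733 lower at 6 weeks than at 0h (limma, Benjamini-Hochberg adjusted p under 0.05), or 5.07% and 5.58%. These probe sets stand for 13879 genes, each represented by its brightest probe set, of which 1059 were higher (7.63%) and 908 lower (6.54%). A change of at least 2-fold was called for 155 genes upward (1.12%) and 172 downward (1.24%). The median log2 change over all genes was 0.002. Pearson's correlation of log2 signals across probe sets was 0.938 to 0.940 among the 0h arrays, 0.941 to 0.948 among the 6w arrays and 0.926 to 0.932 between them. The median SD within a group was 0.12 on the log2 scale for probe sets with a mean log2 signal above 8 and 0.66 below it, so changes of dim probe sets are the less certain. The files used hold no detection calls, and a signal is called dim here when it lies under the 30th percentile of its array (49.2 to 53 at 0h and 45.5 to 54.0 at 6 weeks). Where a group was dim, a fold is given as a lower bound, with each dim array of that group set to its percentile. Fold changes and log2 changes are differences of mean log2(signal + 1), given as mean ± SE with 3 arrays per group. The log2 ratio of 3′ to 5′ GAPDH signal, a sign of RNA integrity, was 0.11, 0.25 and 0.12 at 0h and 0.34, 0.35 and 0.28 at 6 weeks. The same ratio for hexokinase was 2.5, 2.93 and 1.52 at 0h and -0.3, 0.11 and 0.2 at 6 weeks, with signals of 78.4, 81.2 and 113.6 at 0h and 27.3, 25.2 and 10.8 at 6 weeks for the 3′ probe set. The 5′ probe set was dim on all 6 arrays (9.3 to 38.9), and the 3′ probe set on the 3 at 6 weeks. Their part in the results was not tested.

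Markers of hepatocytes were bright in both groups, with summed signals of 232188 to 267705 at 0h and 221965 to 255789 at 6 weeks over 8 genes. Among them the apolipoprotein gene Apoa1 and the hepatocyte transcription factor Hnf4a fell, and Apoa1 was not called in 5 of the 6 fits that leave out 1 array (adjusted p 0.024 to 0.109). Of 7 measured macrophage markers 3 fell (Cd163, C1qa and C1qb), and their sum went from 25817-26382 to 21543-23598. C1qa lost its call without 0h replicate 1 or 3 or 6w replicate 3 (adjusted p 0.035 to 0.0653), and C1qb without 0h replicate 1 or 2 or 6w replicate 2 or 3 (adjusted p 0.0244 to 0.0745). The 6 stellate cell markers summed to 5551-5683 at 0h and 4494-4542 at 6 weeks, with Reln and Col3a1 lower, and the 5 endothelial markers to 7874-8569 and 6802-7516, with Stab2 lower. Col3a1 was not called without any 1 of the 6 arrays (adjusted p 0.066 to 0.0759). No marker of T and cytotoxic lymphocytes (6 genes, 1409-1470 and 1371-1589), neutrophils (2 genes, 4199-4455 and 4264-4442), B cells (2 genes, 154-192 and 186-232), cholangiocytes (4 genes, 1206-1226 and 1078-1211), red cells (2 genes, 25909-29014 and 26345-27761) or adipocytes (2 genes, 38.8-82.8 and 52.2-89.8) was called. In bulk tissue, fewer cells of a type and less RNA per cell cannot be told apart.

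The promoters of the genes that carry the rise in antigen presentation are shown first, since these genes moved together. Each sequence runs from 250 bases before to 50 bases after the annotated gene start on assembly GRCr8 and comes from RefSeq, whose reference animal is of another strain. In the class II genes, capitals mark CCAAT or, on the opposite strand, ATTGG, the letters of the Y box that the factor NF-Y binds in class II promoters.
RT1-Ba (chr20:4576807-4577106, plus strand): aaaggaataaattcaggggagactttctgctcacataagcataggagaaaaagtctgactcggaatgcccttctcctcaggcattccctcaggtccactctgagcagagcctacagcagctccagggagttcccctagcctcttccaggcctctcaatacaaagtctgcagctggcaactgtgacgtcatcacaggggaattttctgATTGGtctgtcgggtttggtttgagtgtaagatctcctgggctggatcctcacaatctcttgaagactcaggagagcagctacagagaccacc
RT1-Bb (chr20:4604069-4604368, minus strand): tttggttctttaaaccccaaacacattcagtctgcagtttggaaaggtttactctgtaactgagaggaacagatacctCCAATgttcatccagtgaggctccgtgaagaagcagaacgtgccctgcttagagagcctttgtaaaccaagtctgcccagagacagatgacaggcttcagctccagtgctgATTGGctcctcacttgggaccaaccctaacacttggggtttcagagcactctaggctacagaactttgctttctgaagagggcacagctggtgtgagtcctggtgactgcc
RT1-Da (chr20:4515165-4515464, plus strand): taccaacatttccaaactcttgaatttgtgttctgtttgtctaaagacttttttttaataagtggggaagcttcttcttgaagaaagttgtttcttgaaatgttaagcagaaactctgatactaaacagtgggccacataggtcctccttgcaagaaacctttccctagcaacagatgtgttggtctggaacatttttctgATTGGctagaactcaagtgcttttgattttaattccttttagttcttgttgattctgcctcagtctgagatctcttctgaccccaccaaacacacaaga
RT1-Db1 (chr20:4560113-4560412, minus strand): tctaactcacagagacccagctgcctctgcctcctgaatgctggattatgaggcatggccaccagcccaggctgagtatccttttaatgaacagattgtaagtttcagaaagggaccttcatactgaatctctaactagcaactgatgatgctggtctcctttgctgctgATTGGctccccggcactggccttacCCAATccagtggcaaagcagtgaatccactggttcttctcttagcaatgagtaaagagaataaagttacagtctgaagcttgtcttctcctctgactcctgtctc
In these 4 promoters ATTGG began 43, 61, 49 and 80 bases before the start of RT1-Ba, RT1-Bb, RT1-Da and RT1-Db1. CCAAT on either strand was present in the promoters of all 5 class II list members that rose, against 37.5% of the 33469 promoters in the table, and in 2 of the 4 found for members that were not called higher. The letters are common, so a match describes the sequence only.

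In Igtp and Irgm, both GTPases of the interferon response, capitals mark TTCNNNGAA, the core letters of the gamma-activated site, and a repeat in which 2 bases separate GAAA from a second GAAA, which interferon regulatory factors recognise. Both motifs were searched on both strands, and in these promoters they do not overlap.
Igtp (chr10:42874797-42875096, plus strand): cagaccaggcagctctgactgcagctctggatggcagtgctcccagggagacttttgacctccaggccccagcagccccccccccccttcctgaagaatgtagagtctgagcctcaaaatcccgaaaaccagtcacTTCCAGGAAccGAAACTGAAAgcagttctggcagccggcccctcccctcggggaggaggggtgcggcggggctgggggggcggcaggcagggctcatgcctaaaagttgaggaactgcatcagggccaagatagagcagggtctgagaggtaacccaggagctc
Irgm (chr10:33742529-33742828, minus strand): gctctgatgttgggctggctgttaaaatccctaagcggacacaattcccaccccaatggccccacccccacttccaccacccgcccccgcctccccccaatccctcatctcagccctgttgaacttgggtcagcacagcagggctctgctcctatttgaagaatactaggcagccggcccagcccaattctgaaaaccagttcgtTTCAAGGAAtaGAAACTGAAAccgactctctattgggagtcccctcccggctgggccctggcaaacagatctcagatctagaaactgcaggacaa
TTCNNNGAA was present in 8.87% of all promoters and the GAAA repeat in 3.92%. Of the 7 promoters found for interferon gamma genes that rose, 4 held the first motif and 3 the second. Of the 7 promoters found for members of that list that did not pass the test as higher, 3 held the first and 2 the second. For the cholesterol pathway, which fell, the promoter of the isoprenoid isomerase gene Idi1 is shown with its 2 CCAAT matches, both on the opposite strand, in capitals.
Idi1 (chr17:66547475-66547774, minus strand): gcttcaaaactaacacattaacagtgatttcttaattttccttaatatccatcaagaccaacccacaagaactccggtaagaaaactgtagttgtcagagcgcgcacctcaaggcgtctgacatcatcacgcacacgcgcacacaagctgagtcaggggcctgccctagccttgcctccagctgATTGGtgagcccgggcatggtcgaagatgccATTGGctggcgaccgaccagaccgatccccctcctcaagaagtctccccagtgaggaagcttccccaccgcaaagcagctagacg
CCAAT was present in 12 of the 15 promoters found for cholesterol synthesis genes that fell (80.0%), against 37.5% of all promoters. Over all 16 promoters found for measured genes of this list it was in 13 (81.2%). The promoter of Mvk, which was not called, held 5 matches, so CCAAT does not set apart the genes that fell. TCACNCCAC, a form of the sterol regulatory element, was in 0 of these 15 and in 1.12% of all promoters.

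**Figure D1:**
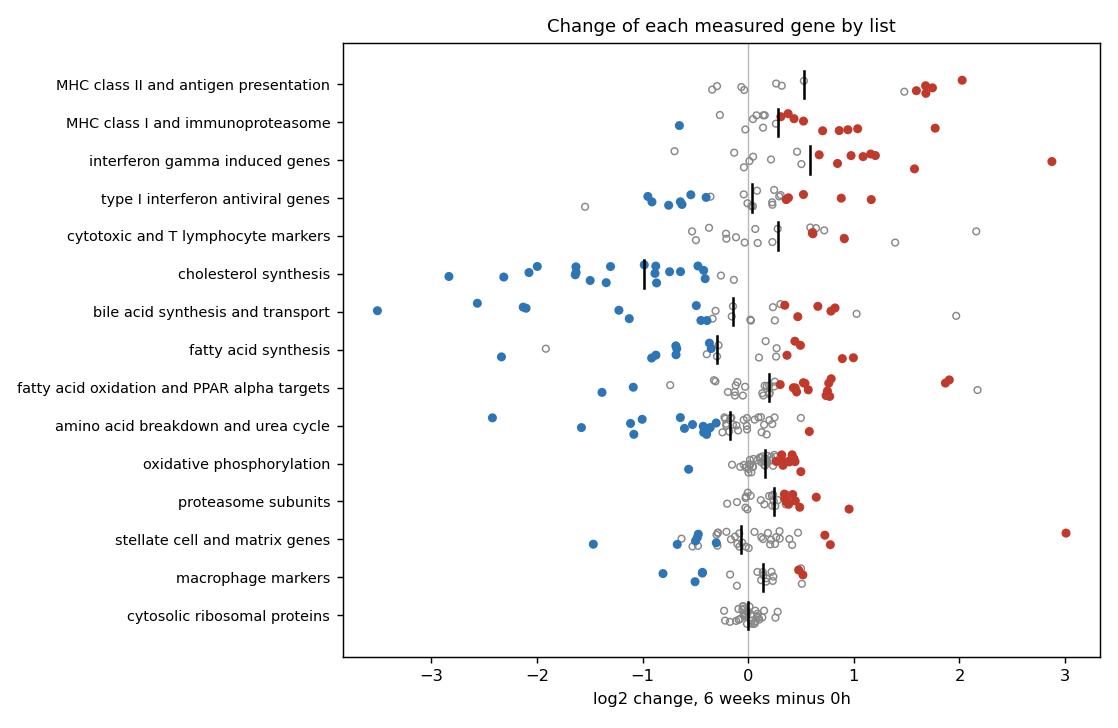
Log2 change from 0h to 6 weeks (horizontal axis) of each measured gene in 15 gene lists, with called genes filled (red higher, blue lower), genes not called open, and the list median as a black bar. Cholesterol synthesis lay to the left with a median of -0.98, the class II and interferon gamma lists had medians of 0.53 and 0.59, and ribosomal proteins lay between -0.23 and 0.28.

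Genes of antigen presentation and of the interferon gamma response were higher at 6 weeks. RT1-Bb, a class II beta chain, gave signals of 1671, 1562 and 1596 at 0h and 6857, 6311 and 6505 at 6 weeks. Every array at 6 weeks thus lay above every array at 0h, a 4.07-fold rise (log2 change 2.03 ± 0.08 SE, adjusted p = 1.12e-06). RT1-Da, a class II alpha chain, gave 4599.8, 4354 and 4568, then 14899, 14190.4 and 14296, and rose by 1.68 ± 0.07. The invariant chain Cd74, which guides class II molecules to the endosome, gave 4996, 4939.7 and 4927, then 16404, 14729 and 13792, and rose by 1.59 ± 0.11. The other chains RT1-Db1 and RT1-Ba rose by 1.74 ± 0.10 and 1.68 ± 0.08. Of the 13 measured genes of the class II list, 5 rose, none fell and 8 were not called, with a median of 0.53. The class II transactivator Ciita, which switches these genes on, was dim on 2 arrays at 0h and not called (1.48 ± 0.48, adjusted p = 0.0889). With the mean of its 4 probe sets in place of the brightest, RT1-Ba was not called. MHC genes are polymorphic, so that probes can bind the transcripts of animals unequally, and the part of such differences was not tested.

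No class II list member was called higher than 0h at the earlier feeding times. At 2 and 4 weeks RT1-Bb had mean signals of 1144 and 676, both under the 1609.7 of 0h, and at 6 weeks 6558. The comparisons with 0h share the 0h arrays, and they gave 0 members higher and 4 lower at 2 weeks, and 0 and 6 at 4 weeks, where 8.24% and 7.77% of all genes were higher and 6.38% and 7.98% lower. Compared directly with 4 weeks, 6 members were higher at 6 weeks and none lower (background 2.29% and 1.30%), and against 2 weeks 5 and none (1.53% and 1.99%). From 4 to 6 weeks RT1-Ba differed by 3.43 ± 0.08 (adjusted p = 1.18e-07) and Cd74 by 2.19 ± 0.11.

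**Figure D2:**
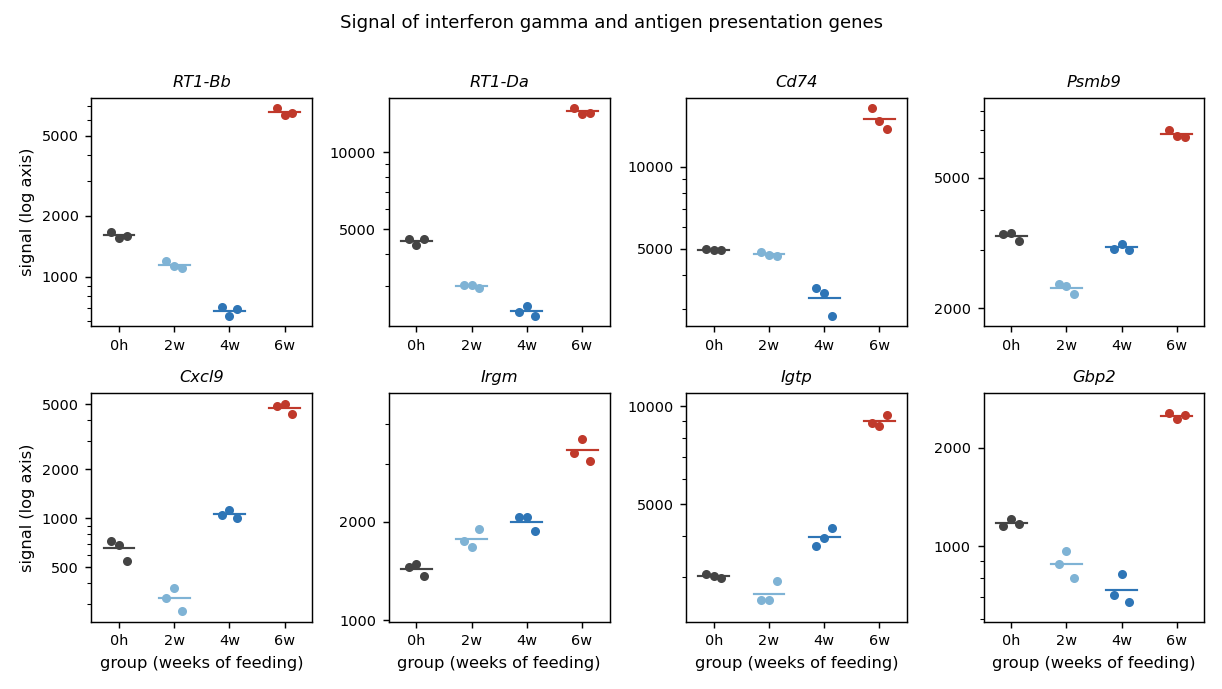
Signal (log axis) of 8 genes of antigen presentation and the interferon gamma response on each array, with 3 points and their mean as a bar per group (0h, and 2, 4 and 6 weeks of feeding). In all 8 panels the 3 arrays at 6 weeks lie above the other 9.

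Interferon gamma target genes moved with them. The T cell chemokine Cxcl9 gave 729, 689.7 and 545 at 0h and 4925, 5059.8 and 4357 at 6 weeks, 7.33-fold more (2.87 ± 0.15, adjusted p = 6.26e-06). Its mean was 322 at 2 weeks and 1064 at 4 weeks. Igtp went from 3058, 3019.7 and 2986 to 8904, 8679 and 9421, with no overlap between the groups. The GTPases Igtp, Irgm and Gbp2 rose by 1.57 ± 0.09, 1.2 ± 0.09 and 1.09 ± 0.10. Of 16 measured interferon gamma genes 8 rose and none fell, with a median of 0.59, and leaving out any 1 array gave 8 as well. Against 4 weeks 9 were higher and none lower (2.29% and 1.30% of all genes), and against 2 weeks 8 and 1 (1.53% and 1.99%). Neighbouring chemokine Cxcl10 was not called (0.46 ± 0.18, adjusted p = 0.159), and the cytokine itself, Ifng, was dim on most arrays (1.11 ± 0.69, adjusted p = 0.387).

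Class I presentation rose as well. Psmb9, a catalytic subunit of the immunoproteasome that cuts peptides for class I molecules, gave 3372, 3385 and 3206 at 0h and 7032, 6732 and 6669.8 at 6 weeks, 2.05-fold more (1.04 ± 0.07, adjusted p = 3.99e-05). The class I gene RT1-N3 went from 287, 349 and 405 to 1264, 1108 and 1159 (1.77 ± 0.14). Tap1, a subunit of the peptide transporter, rose by 0.70 ± 0.13, but not with the mean of its probe sets. Of 18 class I and immunoproteasome genes 9 rose and 1 fell, the trimming peptidase Erap1 (-0.65 ± 0.09), with a median of 0.29. The light chain B2m was not called (0.14 ± 0.09). RT1-A3 rose by 0.94 ± 0.07, but another of its probe sets was called lower.

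Antiviral genes of the type I interferon response moved both ways, 5 of 24 higher and 7 lower, with a median of 0.04. Ifi44l rose by 1.16 ± 0.10 and Ifit1, which binds viral RNA, by 0.88 ± 0.13. The tetherin gene Bst2, which holds back budding virus, went from 9617, 9223 and 9593 to 5194, 4656 and 4881 and fell by 0.95 on the log2 scale (SE 0.09), and Mx2, an interferon-induced GTPase, and Rsad2, the antiviral enzyme viperin, changed by -0.91 ± 0.16 and -0.75 ± 0.09. The number higher was 3 without 6w replicate 2.

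Most lymphocyte genes were not called. Of 21 cytotoxic and T cell markers 3 rose and none fell (median 0.28), or 14.3% higher against 7.63% over all genes. Higher were the granzyme Gzmk (0.91 ± 0.13), the chemokine Ccl5 (0.61 ± 0.11) and the T cell kinase Lck (0.61 ± 0.11). The T cell receptor subunit Cd3d had signals of 123, 57.9 and 82.5 at 0h and 249, 221 and 197 at 6 weeks, which do not overlap, but it was not called (1.39 ± 0.70, adjusted p = 0.276). The SD of its log2 signal was 0.54 at 0h and 0.17 at 6 weeks. At 2 and 4 weeks it was 1.32 and 1.15, and those arrays also enter the SE. Ctsw, a cathepsin of cytotoxic cells outside that list, gave dim signals at 0h (14.2, 12.3 and 16.7) and rose at least 2.91-fold (adjusted p = 0.00183). Within the list, the cytotoxic markers Gzma (-0.21), Prf1 (-0.49) and Nkg7 (0.28) were not called. Against 2 weeks, 10 of the 21 markers were higher at 6 weeks and none lower, and against 4 weeks 4 and none. Of all genes, 1.53% were higher and 1.99% lower than at 2 weeks, and 2.29% and 1.30% than at 4 weeks. Of 9 B cell and plasma cell genes 1 fell, Mzb1, a chaperone of antibody secretion (-0.60 ± 0.13). Its call was lost without 0h replicate 1 or 3 or 6w replicate 1 or 3 (adjusted p 0.0397 to 0.0728 over the 6 fits that leave out 1 array).

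Myeloid genes showed no common direction. Of 19 macrophage markers 2 rose and 4 fell (median 0.14). The scavenger receptors Cd163 and Mrc1 fell, Cd163 from 711, 784 and 816 to 411, 453 and 455 (-0.81 ± 0.12) and Mrc1 by 0.50 ± 0.07, while the endotoxin receptor Cd14 rose by 0.52 ± 0.09. The other riser, Gpnmb, a glycoprotein of lipid-laden macrophages, rose by 0.48 ± 0.10, and its call was lost without 0h replicate 3 (adjusted p = 0.0517). The number of macrophage markers that fell was 2 without 0h replicate 1 or 6w replicate 3. Of 10 neutrophil markers 1 rose, the Fc receptor Fcgr3a (0.43 ± 0.11), which was not called without any 1 of the 6 arrays (adjusted p 0.0608 to 0.12). Against 4 weeks, where the neutrophil median was -0.71 relative to 0h, 4 neutrophil markers were higher at 6 weeks, and against 2 weeks 3 were lower. The shares over all genes were 2.29% higher than at 4 weeks and 1.99% lower than at 2 weeks.

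Among 28 chemokines and cytokines 4 rose and 2 fell (median 0.04). Cxcl1, which draws neutrophils, gave 868, 928 and 813 at 0h and 1905, 2149 and 1888 at 6 weeks, 2.27-fold more (1.19 ± 0.10, adjusted p = 0.000163). At 4 weeks its mean was 440.4, below 0h. The lymphoid chemokine Ccl21 rose by 0.88 ± 0.16 and Cxcl13, which attracts B cells, fell by 0.83 (SE 0.14). The other gene called lower, Cxcl12, was not called without any array other than 0h replicate 3. The fibrogenic cytokine Tgfb1 was dim on all 0h arrays, with 11.8, 8.10 and 20.9 against 85.5, 132 and 114, at least 2.13-fold higher (adjusted p = 0.00947). The inflammatory cytokines Tnf (-0.01 ± 0.26), Il6 (-0.81 ± 0.62), Il1b (0.18 ± 0.08) and Ccl2 (0.27 ± 0.42) were not called. Of 24 acute phase plasma proteins none rose and 1 fell, the cytokine receptor Lifr, from 459, 579 and 578 to 128, 60.8 and 131 (-2.40 ± 0.39), with a median of -0.06. Of 28 complement and coagulation genes 1 rose and 4 fell (median -0.09). The riser was C2, which lies in the MHC region (0.75 ± 0.07), and complement C5 and coagulation factor F5 fell by 0.48 (SE 0.07) and 0.51 (SE 0.08). Without 0h replicate 1 or 2 or 6w replicate 2 or 3, 2 of these genes fell.

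The clearest loss was in cholesterol synthesis. Sqle, which makes squalene epoxide, gave 1611, 1664 and 1774 at 0h and 307, 355 and 353 at 6 weeks, 4.97-fold less (-2.31 ± 0.13, adjusted p = 8.46e-06). In Sqle, as in Idi1 (-2.08 ± 0.08), every array at 6 weeks lay below every array at 0h. The sterol reductase Tm7sf2 and the methyl oxidase Msmo1 changed by -2.83 ± 0.08 and -2.0 ± 0.07, and Hmgcs1, which feeds the pathway, by -1.64 ± 0.09. In all, 19 of 21 genes fell and none rose, with a median of -0.98 against 0.002 over all genes. Between 16 and 19 fell when 1 array was left out. The kinase Mvk (-0.26 ± 0.15, adjusted p = 0.351) was not called. The pathway was lower than at 2 weeks (15 of 21 genes, none higher, against 1.99% and 1.53% of all genes). Against 4 weeks 2 genes were higher at 6 weeks and none lower, among them Sqle (0.64 ± 0.13). Of all genes, 2.29% were higher and 1.30% lower than at 4 weeks.

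Genes of sterol uptake and handling fell too, 7 of 17, while 1 rose (median -0.22). The sterol carrier Stard4 gave 1452, 1726 and 1464, then 784, 827 and 780.3 (-0.95 ± 0.09, adjusted p = 0.000292), and the sterol exporter Abca1 fell by 0.70 (SE 0.11). Srebf2, which encodes SREBP-2, and Insig1, which holds it back, were not called (0.10 ± 0.10 and -0.22 ± 0.08), whereas Scap, which escorts SREBP-2, fell by 0.59 (SE 0.11). The only riser, the oxysterol receptor Nr1h3 (0.39 ± 0.09), was not called in any of the 6 fits that leave out 1 array.

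Bile acid synthesis and sterol export changed in both directions, 5 of 25 genes higher and 9 lower (median -0.14). Cyp7a1, the rate-limiting enzyme of bile acid synthesis, gave 9244, 8439.8 and 9355 at 0h and 2069.7, 2008 and 2213 at 6 weeks, 4.30-fold less (-2.10 ± 0.09, adjusted p = 1.98e-06). Cyp8b1, which directs synthesis to cholic acid, went from 10791, 10960.3 and 10533 to 2553, 2469 and 2353 (-2.13 ± 0.07). Both subunits of the sterol exporter fell with them. Abcg5 gave 924, 838 and 805, then 161, 128 and 144 (-2.56 ± 0.15), and Abcg8, dim on 2 of the 3 arrays at 6 weeks, was at least 6.67-fold lower (adjusted p = 0.000535). The phospholipid exporter Abcb4 fell by 1.22 (SE 0.11) and the conjugate exporter Abcc2 by 1.13 (SE 0.09). Higher were Nr0b2, a repressor of Cyp7a1 (0.78 ± 0.10), and the steroid reductase Akr1d1 (0.82 ± 0.08). Nr0b2 differed between feeding times, with means of 2183, 504 and 1958 at 2, 4 and 6 weeks, and 6 weeks was above 4 weeks by 1.96 ± 0.10 (adjusted p = 1.77e-05).

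**Figure D3:**
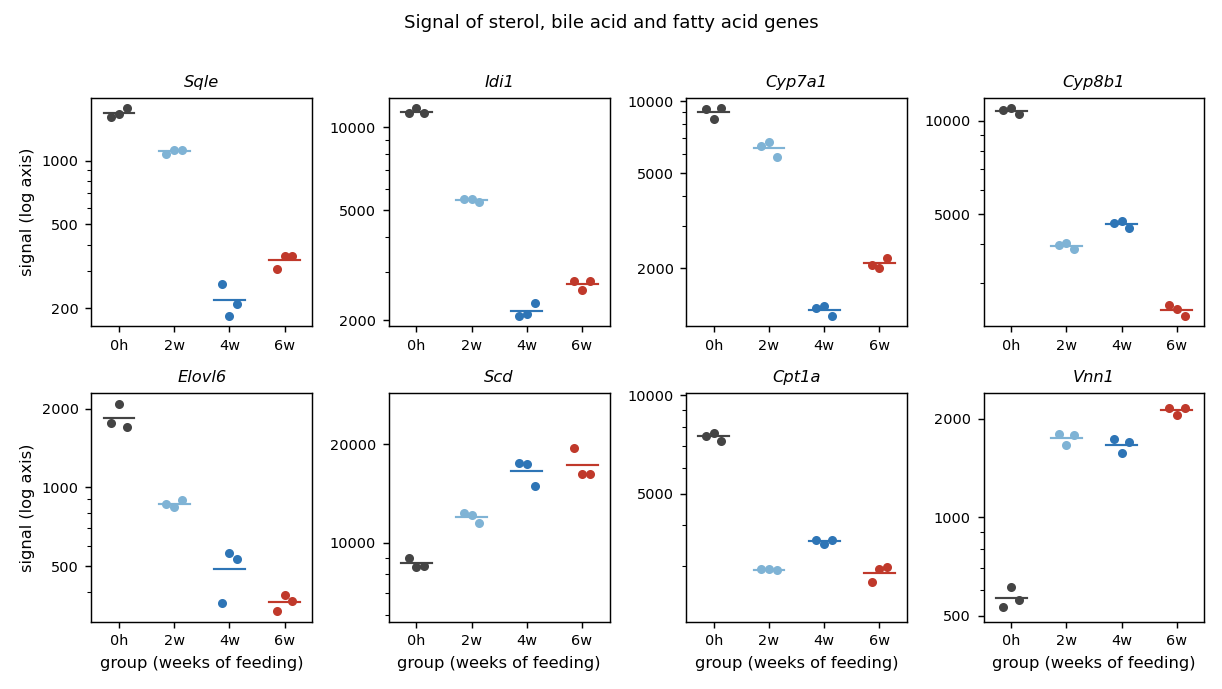
Signal (log axis) of 8 genes of sterol, bile acid and fatty acid metabolism on each array, with 3 points and their mean as a bar per group (0h, and 2, 4 and 6 weeks of feeding). Sqle, Idi1, Cyp7a1, Cyp8b1, Elovl6 and Cpt1a were lower on every array at 6 weeks than at 0h, and Scd and Vnn1 higher.

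Fatty acid synthesis genes moved in both directions. Of 21 genes 5 rose and 8 fell (median -0.30), and 3 rose without 0h replicate 1 or 6w replicate 2. Elovl6, which lengthens palmitate, gave 1759, 2088 and 1699 at 0h and 337, 388 and 369 at 6 weeks (-2.34 ± 0.16, adjusted p = 4.27e-05), and Elovl5, which lengthens polyunsaturated fatty acids, fell by 0.91 (SE 0.08). Scd, which desaturates stearate, went the other way, from 8999.9, 8442 and 8505 to 19429, 16247 and 16236 (1.99-fold, 1.0 ± 0.10). The desaturases Fads1 and Fads2 were called lower (-0.685 and -0.676). Malic enzyme, Me1, which supplies NADPH, rose by 0.89 ± 0.07. The synthase Fasn was near the threshold (-0.37 ± 0.10, adjusted p = 0.0489) and lost its call without either of 0h replicates 1 and 2 and without any 6w array (adjusted p 0.0464 to 0.139 over the 6 fits). Srebf1, which drives these genes, was not called (0.10 ± 0.07).

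Of 26 genes of triglyceride synthesis and lipid droplets 3 rose and 4 fell (median -0.11). Cidea, which enlarges lipid droplets, gave 377, 343 and 359.8, then 817, 692 and 756 (1.06 ± 0.10, adjusted p = 0.000239), and its relative Cideb rose by 0.88 ± 0.10. The lipase gene Mgll, which releases monoglyceride fatty acid, rose by 0.79 ± 0.13. Gpam, the first step of glycerolipid synthesis, and the phosphatase Lpin1 fell by 1.06 (SE 0.20) and 0.84 (SE 0.09). The droplet coat protein Plin2, often used as a sign of fat in hepatocytes, had signals of 5914, 5974 and 6147 and 6252, 5659 and 5579, which overlap (-0.05 ± 0.07, adjusted p = 0.778). Of 28 genes of fatty acid uptake and lipoproteins 2 rose and 5 fell (median -0.05), and the falls numbered 2 without 0h replicate 3 or 6w replicate 2 and 3 without 0h replicate 1, 0h replicate 2 or 6w replicate 1. Apoa4, an apolipoprotein that rises with fat transport, went from 6842, 7821 and 7377 to 17401, 16439 and 15282 (2.23-fold), and the fatty acid translocase Cd36 fell by 0.35 (SE 0.07).

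Fatty acid oxidation rose in 14 of 36 genes and fell in 2 (median 0.20). Vnn1, a PPAR alpha target that turns over coenzyme A, gave 532, 611 and 559 at 0h and 2152, 2059.8 and 2157 at 6 weeks, 3.74-fold more (1.90 ± 0.08, adjusted p = 2.4e-06). Cyp4a8, a fatty acid hydroxylase, went from 137, 116 and 91.2 to 453, 388 and 407 (1.87 ± 0.22), and the thiolase Acaa2 rose by 0.79 ± 0.08. Both that fell control fuel entry to mitochondria. Cpt1a, which admits long-chain fatty acids, went from 7513, 7688 and 7258 to 2681, 2949.6 and 2980.2 (-1.38 ± 0.07), and Pdk4, which restrains glucose oxidation, fell by 1.09 (SE 0.10). Ppara itself (-0.31 ± 0.56) and the PPAR alpha target Fgf21 (-0.74 ± 0.56) were not called. Of 43 oxidative phosphorylation genes 10 rose and 1 fell (median 0.16), with 0.50 ± 0.08 for the complex I subunit Ndufs3 as the highest. The count higher was 5 to 7 when 1 array was left out, 5 of them without 0h replicate 3 and 6 without 0h replicate 1 or 6w replicate 1.

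In glucose handling 4 of 32 genes rose and 7 fell (median 0.09). Pfkfb1, which controls glycolysis in the liver, gave 1434, 1388 and 1322 at 0h and 2495, 2555 and 2411 at 6 weeks (0.85 ± 0.08, adjusted p = 0.000301). Igfbp1, which insulin represses, went from 4496, 4576 and 4741 to 919.9, 1022 and 978 (4.73-fold less), and the gluconeogenic enzyme Pck1 fell by 0.49 (SE 0.08). The transcription factor Onecut1 went from 5447, 5955 and 6161 to 1064, 907 and 906 (-2.61 ± 0.09). Of 40 genes of amino acid breakdown and the urea cycle 14 fell and 1 rose (median -0.17). Sds, which deaminates serine, gave 5408, 5399.6 and 5208, then 1057, 999 and 935 (5.36-fold less), the aspartate aminotransferase Got1 fell by 1.58 (SE 0.07), and the urea cycle enzyme Asl by 1.11 (SE 0.08). The histidine lyase Hal and the glyoxylate aminotransferase Agxt changed by -1.08 ± 0.11 and -1.0 ± 0.10.

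In the growth hormone and IGF axis 2 of 19 genes rose and 7 fell (median -0.31). The IGF-binding protein Igfbp2 gave 1237, 1068 and 1077, then 183, 236 and 260.4 (-2.32 ± 0.15, adjusted p = 2.51e-05), and Bcl6, a repressor that growth hormone lowers, rose from 279.5, 156 and 175 to 1029, 1129.7 and 1059 (5.41-fold). Igf1 was not called (-0.21 ± 0.08). Of 25 hepatokine genes 2 rose and 1 fell (median -0.07). Inhba, an activin subunit, rose by 0.97 ± 0.17, and the falling gene, Igf2, was dim on all arrays at 6 weeks and not called without 0h replicate 1 or 3 or 6w replicate 2 (adjusted p 0.0206 to 0.0575 over the 6 fits).

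The largest rise among the named genes was that of Cyp1a1, a P450 enzyme that dioxin-like ligands induce. It gave 26.8, 49.8 and 48.1 at 0h and 729, 814 and 759 at 6 weeks, at least 14.8-fold more since 2 of the 0h arrays were dim (adjusted p = 8.57e-06). At 4 weeks its signals were 10.5, 9.80 and 7.70 and at 2 weeks 191, 251 and 257, so the 4 groups did not overlap. Ahr, which encodes the receptor for such ligands, fell by 0.91 (SE 0.16; not called with the mean of its probe sets), and the other targets Cyp1a2 (0.03 ± 0.09) and Nqo1 (0.09 ± 0.09) were not called, so that 1 of 9 listed genes rose and 1 fell (median 0.03). Of 29 genes of P450 enzymes and conjugation 8 rose and 5 fell (median 0.15). Inmt, which methylates indoles, gave 1032, 841 and 947, then 6039, 5911 and 6026 (2.68 ± 0.10), and the sterol sulfotransferase Sult2b1 went from dim at 0h (13.8, 9.90 and 14.8) to 148, 149 and 163, at least 2.98-fold more. Sult2b1 stood at 154 and 141 at 2 and 4 weeks, and neither differed from 6 weeks beyond the spread (-0.01 ± 0.14 and 0.12 ± 0.14).

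Antioxidant genes of the NRF2 list rose in 9 of 28 cases and fell in 3 (median 0.08). Gclc, the catalytic subunit of glutathione synthesis, gave 1375, 1523 and 1438 at 0h and 3608, 3652 and 3741 at 6 weeks (2.54-fold, adjusted p = 1e-05), and the aldehyde reductase Akr7a3 rose by 1.47 ± 0.11. The metallothioneins Mt1 and Mt2A, which bind zinc and copper, fell, and Mt3 was not called (-0.90). Mt2A went from 16296, 16303 and 15764 to 3739, 3641 and 3764 (-2.12 ± 0.07) and Mt1 fell by 1.60 (SE 0.09), within a list of 8 zinc genes in which 3 fell and 1 rose (median -0.36). Of 25 iron and heme genes 6 rose and 2 fell (median 0.02), with the iron sensor Hfe up by 0.68 ± 0.09 and the transferrin receptor Tfr2 down by 0.62 (SE 0.09), while the iron hormone Hamp was not called (-0.07 ± 0.09).

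Heat shock chaperones rose in 6 of 18 cases, with none lower (median 0.25), led by the small chaperone Hspb1, from 182, 225 and 201 to 509.6, 611 and 569 (1.47 ± 0.14), and Hsp90aa1 (0.99 ± 0.07). Endoplasmic reticulum stress genes rose in 3 of 25 cases and fell in 6 (median -0.05), with the chaperone Hyou1 up by 0.96 ± 0.11 and Herpud1, of protein degradation, down by 0.67 (SE 0.07). Of 15 p53 targets 2 rose and 2 fell (median 0.03). Cdkn1a, which arrests the cell cycle, gave 176, 296 and 260.4, then 713, 864 and 560.2 (2.93-fold), and Sesn1, a stress-induced regulator, fell by 1.17 (SE 0.12). Proteasome subunits rose in 10 of 29 cases with none lower (median 0.24), the regulatory subunit Psmd1 by 0.95 ± 0.10 and the catalytic Psmb6 by 0.64 ± 0.09, and 6 to 8 rose when 1 array was left out, 6 of them without 6w replicate 1. None of 34 ribosomal protein genes was called (median -0.00). Of 34 replication and mitosis genes 7 rose and none fell (median 0.31). Rrm2, of nucleotide synthesis, gave 356, 367 and 369.7, then 702, 715 and 687 (0.94 ± 0.09), and the mitotic kinase Cdk1 rose by 0.91 ± 0.17. That count was 3 without 0h replicate 2, 0h replicate 3 or 6w replicate 1, and 4 without 6w replicate 2 or 3.

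Most matrix genes were not called. Of 38 stellate cell and matrix genes 3 rose and 6 fell (median -0.07), 2 to 4 and 2 to 5 when 1 array was left out. The shares were 7.89% higher and 15.8% lower, against 7.63% and 6.54% of all genes. Lox, which crosslinks collagen, gave 540.2, 480.1 and 689.6 at 0h and 231, 183 and 199 at 6 weeks (-1.47 ± 0.15, adjusted p = 0.000336), and the proteoglycan Dcn rose by 0.78 ± 0.10. Collagen Col1a1 (155, 139.9 and 158 against 188, 148 and 189.7) and the myofibroblast actin Acta2 (190.0, 143 and 115 against 179, 168 and 163) overlapped between groups and were not called. At 2 weeks 15 of these genes had been higher than at 0h, and 11 were lower at 6 than at 2 weeks. Of all genes, 8.24% were higher at 2 weeks than at 0h and 1.99% lower at 6 than at 2 weeks. Without 0h replicate 1 the number of matrix genes that fell was 2, and without 0h replicate 3, 6w replicate 2 or 6w replicate 3 it was 3.

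In the remaining marker lists most genes were not called. The share lower was 12.5% in the endothelial, 11.1% in the red cell and 22.7% in the hepatocyte list, against 6.54% of all genes. The share higher was 7.69% in the cholangiocyte and in the adipocyte and muscle list and 4.55% in the hepatocyte list, against 7.63% of all genes. Of 16 endothelial genes 2 fell (median -0.10), 1 of them the hyaluronan receptor Stab2, from 1186, 1183 and 1181 to 653, 655 and 642 (-0.86 ± 0.08), and the other was lost without 0h replicate 2 or 3 or any 6w array. Of 13 cholangiocyte genes 1 rose (median 0.11), the mucosal peptide Tff3 (0.60 ± 0.17), which was called in only 1 of the 6 fits without an array (adjusted p 0.0321 to 0.151). Of 9 red cell and platelet genes 1 fell (median -0.08), the haemoglobin chaperone Ahsp (-0.83 ± 0.18), not called without 0h replicate 2 (adjusted p = 0.06). Of 13 adipocyte and muscle genes 1 rose (median -0.16), Cidea, described above. Of 22 hepatocyte markers and transcription factors 1 rose and 5 fell (median -0.14). Cebpb, a factor of the acute phase, rose by 0.76 ± 0.08, and Hnf4a went from 2127, 2149 and 2139.5 to 1202, 1216 and 1101 (-0.87 ± 0.10), whereas albumin, Alb, was not called (-0.04 ± 0.17). The falls in this list were 3 or 4 when 1 array was left out, and 3 without any array other than 6w replicate 1.

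Several of the lowest values of the comparison belonged to transcripts that were abundant at 0h and far lower in every fed group. A1bg, a plasma protein that is female-biased in rat liver, gave 26293, 26975 and 24289 at 0h and 166, 114 and 155 at 6 weeks (-7.49 ± 0.23, adjusted p = 3.71e-07). Cyp2c12, the steroid hydroxylase of female rat liver, went from 33576, 36489 and 31864 to 1597, 1831 and 1593 (-4.34 ± 0.12). The prolactin receptor Prlr and Cux2, a transcription factor of female liver, both also female-biased in rodent liver, fell by 2.75 (SE 0.08) and at least 5.73-fold. Some male-biased genes rose. The pheromone carrier Mup5 went from 217, 213 and 182 to 964, 571 and 952 (1.98 ± 0.28), the related Obp3 rose by 1.54 ± 0.09, and the hydroxylase Cyp2c11 gave 21083, 21169.5 and 19903, then 33749, 31553 and 30867 (0.63 ± 0.08). Cyp3a2 and Car3, also male-biased, were not called (0.15 ± 0.09 and 0.18 ± 0.10). Cyp2c7 (-0.08) and Sult2a1 (-1.90) of the same list were not called either. Among 21 sex-biased transcripts 9 rose and 5 fell (median 0.18). Akr1b7, an aldose reductase, fell 81.8-fold, from 14436, 14806 and 13815 to 146, 197 and 185, and at 2 weeks stood in between with 1338, 1472 and 1470.2.

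Cpa1, a digestive carboxypeptidase of the pancreas, was also high at 0h alone. Cpa1 gave 6212, 6538 and 6044 at 0h and 72.9, 44.7 and 8.70 at 6 weeks, at least 112-fold less (adjusted p = 0.00016). The other acinar genes described here were not called lower. The proteases Ctrb1 (2.60, 31.9 and 15.8 at 0h) and Prss1 (12.4, 72.7 and 62.0) were at or near the dim range on all 6 arrays, and the lipase Pnlip gave 45.7, 56.1 and 70.3, then 105, 104 and 85.4. The summed signal of the 6 acinar markers, mostly the amylase Amy2a3, was 22542 to 23930 at 0h and 20282 to 21374 at 6 weeks. Of 19 acinar genes 2 fell and 1 rose (median -0.18). The riser, Amy2a3 (0.30 ± 0.08, adjusted p = 0.038), was not called without any 1 of the 6 arrays (adjusted p 0.0822 to 0.115).

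**Figure D4:**
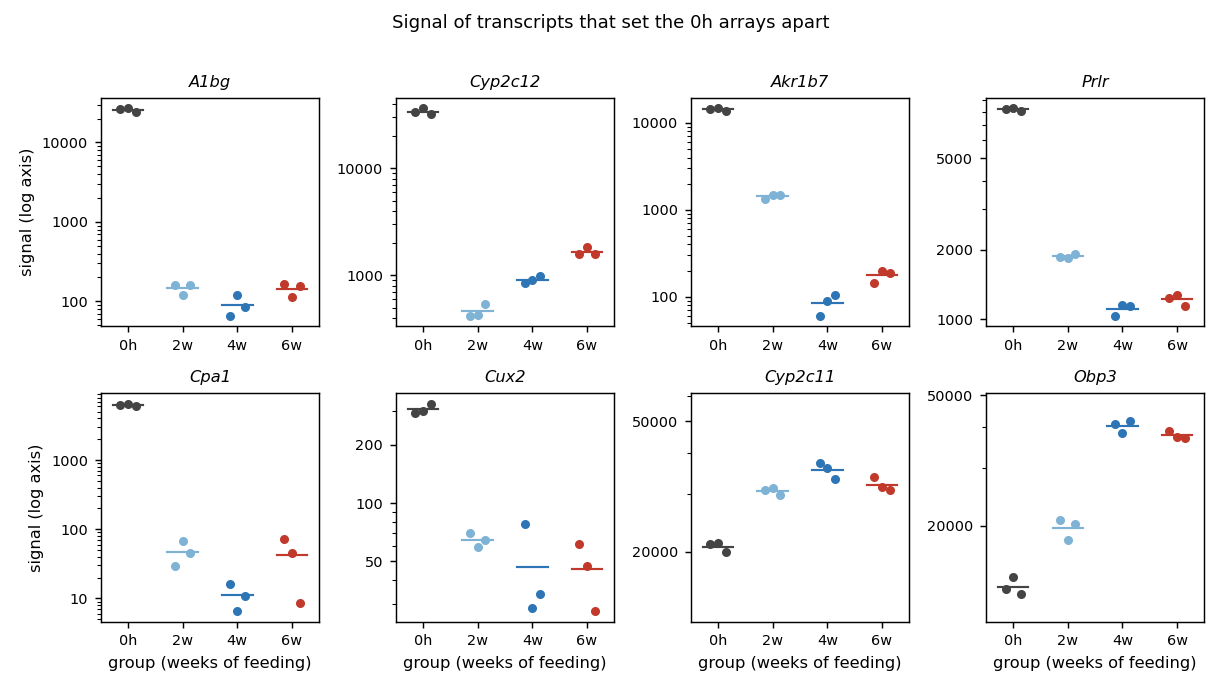
Signal (log axis) of 8 transcripts on each array, with 3 points and their mean as a bar per group (0h, and 2, 4 and 6 weeks of feeding). A1bg, Cyp2c12, Akr1b7, Prlr, Cpa1 and Cux2 lie higher on the 3 arrays at 0h than on all 9 fed arrays, and the male-biased Cyp2c11 and Obp3 lie lower there.

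Clock genes differed between the groups, and no source used here gives the hour of sampling. Nr1d1, a repressor of the clock, gave 652, 719.5 and 786 at 0h and 44.2, 53.8 and 57.4 at 6 weeks, at least 12.8-fold less (adjusted p = 1.24e-05), and its relative Nr1d2 fell by 2.46 (SE 0.22). Per2 and Cry1, which close the feedback loop, rose, Per2 from 165, 156 and 159.7 to 554, 645 and 744 (2.0 ± 0.11) and Cry1 by 1.43 ± 0.11. Of 21 clock genes 7 rose and 6 fell (median 0.03), and the falls numbered 3 without 0h replicate 1. Of 23 immediate early genes, which respond within minutes to stress and handling, 2 rose and 6 fell (median -0.12). The number that rose was 1 without 0h replicate 2 or 3 or 6w replicate 2, and the falls numbered 4 without 0h replicate 2 or 6w replicate 1 or 2. Egr1 gave 911, 885 and 881, then 180.2, 213 and 240.4 (-2.08 ± 0.11), and the phosphatase Dusp1 fell by 1.55 (SE 0.08). Egr1 had been higher at 2 weeks, with 3005, 3143 and 3394.

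**Figure D5:**
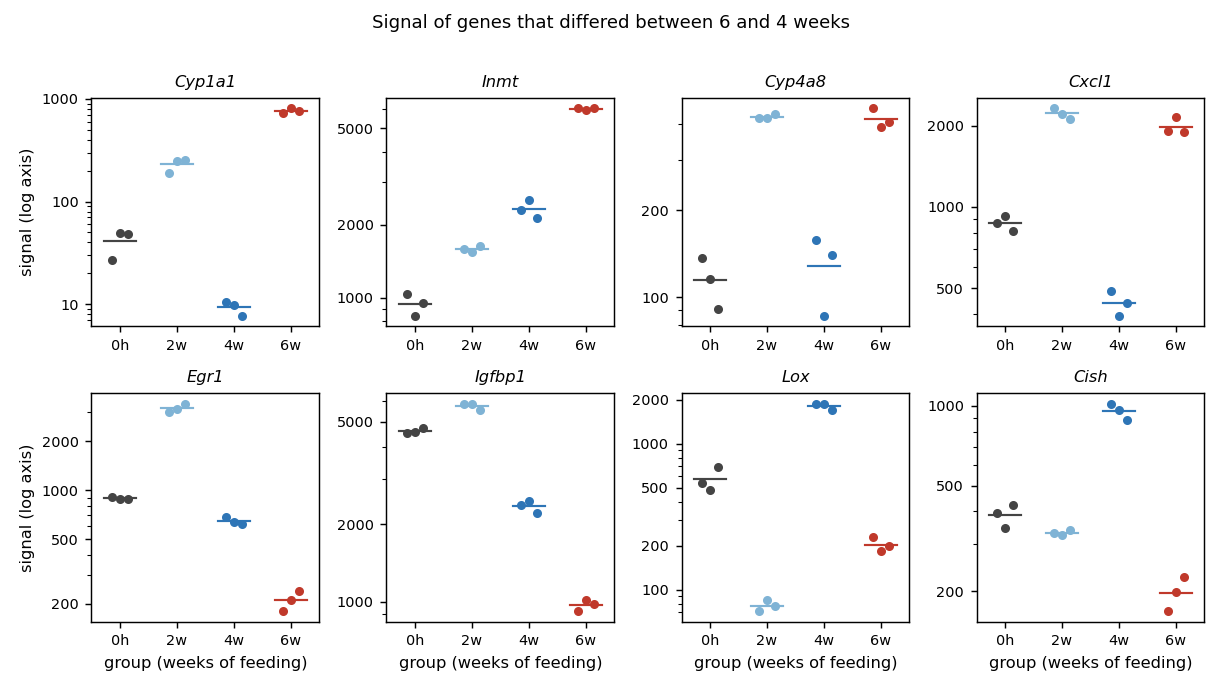
Signal (log axis) of 8 genes that differed between 6 and 4 weeks on each array, with 3 points and their mean as a bar per group (0h, and 2, 4 and 6 weeks of feeding). Cyp1a1, Inmt, Cyp4a8 and Cxcl1 were higher on every array at 6 weeks than at 4 weeks, and Egr1, Igfbp1, Lox and Cish lower.

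Set directly against 4 weeks, 318 genes were higher and 180 lower at 6 weeks, and against 2 weeks 212 and 276. Among the genes outside the immune lists, Lox gave 1869, 1884 and 1706 at 4 weeks and 231, 183 and 199 at 6 weeks (-3.15 ± 0.15, adjusted p = 1.62e-05), and at 2 weeks it had been lower still, with 71.2, 85.0 and 77.8. Cish, an inhibitor that growth hormone induces, went from 1019, 961 and 887 at 4 weeks to 168, 198 and 225 at 6 weeks, having been at 396, 345 and 424 at 0h. Igfbp1 fell between these times by 1.27 (SE 0.08). At 4 weeks Cyp4a8 did not differ from 0h beyond the spread (0.13, adjusted p = 0.77) and at 2 weeks its mean was 423 against 416 at 6 weeks.

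By size alone, the 15 highest characterised genes ranged from 4.22 (Cyp1a1) to 2.38 on the log2 scale, and 10 of them were dim on at least 1 array at 0h, so that only a lower bound of the fold is given for them. Besides those above they were the transcription factor Foxl2 (at least 4.95-fold), the sorting nexin Snx10 (2.55 ± 0.29), the RNA-binding protein Rbm15b (2.44 ± 0.24), the peptide transporter Abcb9 (at least 2.50-fold), the natriuretic peptide Nppa (at least 2.44-fold), the repressor Hes5 (at least 1.57-fold), the mitotic kinase Pbk (at least 2.28-fold) and the adipokine C1qtnf12 (at least 2.70-fold). The calls of Foxl2 and Hes5 were lost in 5 and in all 6 of the fits that leave out 1 array, with adjusted p values of 0.0454 to 0.0683 and 0.061 to 0.113. Of the 15 lowest, the serpin Serpinb9b gave 975, 963 and 944 at 0h and 20.1, 8.20 and 9.40 at 6 weeks, at least 19.0-fold less. The netrin-G gene Ntng1 was at least 1.58-fold lower. Trim24, a cofactor of nuclear receptors, gave 2493, 2378 and 2333, then 177, 265 and 212 (-3.48 ± 0.14), and the blood cell transcription factor Nfe2 885, 856 and 852, then 114, 103 and 107 (-2.99 ± 0.17). The acyltransferase Mogat2 (at least 2.04-fold) was not called without any 1 of the arrays (adjusted p 0.057 to 0.126), and dystrophin, Dmd, was at least 2.45-fold lower.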

How the data were processed

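The deposited sheet holds 1 signal intensity per probe set and array on a linear scale, made with GCOS 2.0 per the submitters' processing notes. The deposited intensity values share a trimmed mean near 500.2 (2.0% trimmed at each end), so each array was scaled by the authors, whose scaling settings no source used here gives. The second deposited table holds the same intensity values to within 0.1, and the 54 ratio columns of the sheet were not used. Probe sets carried 1 symbol in 19858 of 31042 cases, after matching to RefSeq names (15130 current, 3201 older and 35 by accession), and 11121 had none.

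Here log2(signal + 1) was fitted with limma 3.58.1 (R 4.3.3), with 1 mean per group over all 12 arrays, 8 residual degrees of freedom and eBayes. P-values were adjusted by Benjamini-Hochberg over all 31042 probe sets, and a call is an adjusted p under 0.05. Every adjusted p in the text comes from this fit or from an alternative of it. A gene is its probe set with the highest mean. On simulated data for 6w against 0h with 31042 probe sets, 13 of 54 changes of 1.5-fold, 45 of 76 of 2-fold and 54 of 70 of 4-fold were called, with 12 false among 124 calls. Deviations of same-numbered arrays of 0h and 6w from their group means correlated at only 0.01 to 0.03. No shared deviation by replicate number was thus seen, which does not exclude a pairing, and none was used in the main fit. Tables and figures were made with Python 3.11.15, pandas 2.3.3, numpy 2.4.6 and matplotlib 3.10.9.

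The members, the 44 gene lists and the tests were chosen with earlier results of these data known. Named are the 15 highest and 15 lowest characterised genes whose groups did not overlap and whose brighter group was not dim, up to 5 called members of each list with the largest change, the 8 highest and 8 lowest of 6w against 4w by the same rule, marker genes and a set of benchmark genes. Abcc2, Akr1d1, B2m, Car3, Ciita, Cxcl10, Cxcl12, Cyp1a2, Cyp2c7, Cyp2c11, Cyp3a2, Erap1, Fads1, Fads2, Ifng, Mvk, Nqo1, Nr0b2, Nr1h3, Obp3, Scap, Sult2a1 and the genes under other observations were named after their values were seen. Alternatives were other pseudocounts, filters on dim probe sets, quantile and median scaling, eBayes with trend, a fit on 2 groups, a replicate block, the mean of a gene's probe sets and leaving out each 0h and 6w array. Leaving out each 4w array for 6w against 4w, and each 2w array for 6w against 2w, was added after seeing the data. A few members of the lists are counted but not reported by name here.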

Additional observations from a re-analysis of the deposited data

Results flagged for a closer look

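The values below are log2 differences of 6 weeks minus 4 weeks for genes named above or by the same rule, chosen because their change from 0h differed between these feeding times in a direct test (limma, adjusted p under 0.05). The comparisons with 0h share the 0h arrays, and each difference rests on 3 arrays per group.

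Where the dimmer group was dim, the fold is also given as a lower bound. Cyp1a1 differed by 6.22 (adjusted p = 2.91e-06), at least 15.4-fold, since all its 4w arrays were dim. Class II presentation followed, with RT1-Ba at 3.43 (adjusted p = 1.18e-07), RT1-Bb at 3.28 (adjusted p = 1.31e-07), RT1-Db1 at 2.71, RT1-Da at 2.59 and Cd74 at 2.19. The class I genes RT1-N3 and RT1-CE5 differed by 2.32 and 1.63, and Psmb9 by 1.15. Among interferon-induced genes, Cxcl9 differed by 2.17, Gbp2 by 1.77, Igtp by 1.18 and Ifit1 by 1.57, whereas Mx2 was -1.55. Other immune genes higher at 6 weeks were the chemokines Xcl1 (2.55, adjusted p = 0.046, at least 2.25-fold), Cxcl1 (2.17), Ccl5 (1.44) and Ccl21 (1.2), the neutrophil protein S100a8 (1.12) and Gzmk (1.03). Relative to 0h, Xcl1 stood at -0.83 at 6 weeks and -3.38 at 4 weeks, where all 3 arrays were dim.

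Of the other genes higher at 6 weeks, Spock1, a matrix proteoglycan, differed by 2.64 (at least 1.19-fold, dim at 4 weeks) and Snx10 by 2.20. Cyp4a8 differed by 1.73, Inmt by 1.38, Bcl6 by 1.21, Akr1b7 by 1.07 and Cidea by 1.05. The elastase gene Cela1 was at 1.02, near the threshold (adjusted p = 0.048). For Spock1 the change from 0h was -0.38 at 6 weeks and -3.02 at 4 weeks.

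Lower at 6 weeks were Lox (-3.15, adjusted p = 1.62e-05), Cish (-2.28), the lipoxygenase Alox15 (-1.93), the guanine exchange factor Dock11 (-1.84), Onecut1 (-1.77), Egr1 (-1.62) and Igfbp1 (-1.27). Ntng1 (-3.18, adjusted p = 0.0467), Cimap1b (-2.79, adjusted p = 0.0386) and the repressor Rest (-1.67, adjusted p = 0.0187) were dim on all 3 arrays at 6 weeks, so that their folds of 4 weeks over 6 weeks are at least 1.03, 2.11 and 1.59. Cimap1b was dim on all arrays at 0h as well.

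Over the 6 fits that leave out 1 array at 4 or 6 weeks, an alternative added after seeing the data in the case of the 4w arrays, Ntng1, Cela1 and Bcl6 were not called in any (adjusted p 0.0745 to 0.145, 0.0654 to 0.145 and 0.0549 to 0.0691). Cimap1b and Xcl1 lost their calls in 5 (0.00373 to 0.129 and 0.0341 to 0.144), Rest in 4 (0.0349 to 0.0734) and Akr1b7 in 3 (0.0182 to 0.0869). The other genes given here were called in all 6.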

How the results depend on the processing

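With signals from the second table and with pseudocounts of 16 and 32, all 194 named genes that were called were called again in the same direction. With trend and robust priors 192 were called, with quantile scaling 191, with median centring 184, with the mean of the probe sets 181, with a fit on 2 groups 137 and with 1 array left out 167 to 171. No shared call changed its sign in any setting, and the median of all probe sets stayed between -0.038 and 0.021. Only the value of Tf, transferrin, which was not called (-0.02), changed its sign as a call, with the mean of its 2 probe sets (0.434, adjusted p = 0.0179).

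Counts depended more on the setting. A fit on 2 groups, with fewer degrees of freedom, called 558 probe sets higher and 651 lower at 6 weeks than at 0h, 354 and 322 genes, and 85 and 86 list members in place of 160 and 151. The 50th percentile filter gave 1635 and 1401 genes, and trend and robust priors 1645 genes and 242 list members higher. With 1 array left out, probe sets higher numbered 1034 to 1238 and lower 1112 to 1236, genes 696 to 804 and 587 to 649, and list members 131 to 140 and 117 to 128. The lowest counts came without 6w replicate 2 or 3 for genes higher (696) and without 0h replicate 1 for genes lower (587). Higher calls were 47.6% of all calls, 51.6% with quantile scaling and 55.8% with median centring.

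Between 6 and 4 weeks 461 probe sets were higher and 327 lower. These counts were 747 and 576 with the 30th percentile filter, 984 and 761 with the 50th, 912 and 859 with trend and robust priors, 82 and 39 on 2 groups, and 233 to 413 and 140 to 268 with 1 array of 0h, 4w or 6w left out, lowest without 6w replicate 2 and 4w replicate 1. Between 6 and 2 weeks, 342 were higher and 446 lower, and the same settings gave 602 and 781, 829 and 1037, 856 and 1028, 84 and 74, and 168 to 296 and 244 to 381 with 1 array of 0h, 2w or 6w left out, lowest without 6w replicate 2 and 2w replicate 1. With the replicate number as a block, 1286 probe sets were higher and 1366 lower than at 0h. Against 4 weeks the block gave 289 and 172, and against 2 weeks 200 and 287. Same-numbered arrays of 0h and 6w showed no shared deviation. Other causes of these shifts were not tested, and the small number of arrays and dim signals limit the precision.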

Other observations

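Some bright genes outside the lists also changed, and they were picked after their values were seen. Among those lower at 6 weeks were enzymes of steroid inactivation. The sulfotransferase Sult2a2 gave 17376, 18424 and 15604 at 0h and 2845, 3103 and 3051 at 6 weeks (-2.51 ± 0.11, adjusted p = 2.46e-06), all 6w arrays lying below the 0h arrays. Its relative Sult2a6 fell by 1.43 (SE 0.13) and the hydroxysteroid dehydrogenase Hsd17b2 by 1.95 (SE 0.10). Serpina6, which carries corticosteroids in plasma, went from 21969.7, 19989 and 21293 to 11001, 10337 and 10428 (1.99-fold less), and Acss2, which activates acetate for lipid synthesis, fell by 1.24 (SE 0.08). Sult2a2 was lower still at 4 weeks, with a mean of 939 against 2999 at 6 weeks (1.68 ± 0.11, adjusted p = 8.55e-05).

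Among genes that rose, Nat8, an acetyltransferase, gave 872, 972 and 858, then 3069, 2964 and 3069.7 (1.75 ± 0.10, adjusted p = 1.46e-05). The iron-binding protein Pir went from 357, 413 and 366 to 1218, 1295 and 1177 (3.25-fold), and Hao2, a peroxisomal oxidase of hydroxy acids, rose by 0.98 ± 0.09. The lymphocyte survival cytokine Il7 gave 509, 517 and 432, then 1374, 1124 and 1217 (1.35 ± 0.13), and Hdc, which makes histamine, rose by 1.39 ± 0.17. Il7 was also above 2 and 4 weeks, by 0.90 and 0.62 (adjusted p = 0.00729 and 0.0431).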
